A study of Mus musculus with 8 samples.

Results

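The Myc, Max and Mxd network is a set of transcription factors that compete for a shared partner, Max. Its 10 genes were taken by symbol from the 20254 genes of the deposited table: Myc, Mycn and Mycl, the partner Max, the antagonists Mxd1, Mxi1, Mxd3, Mxd4 and Mnt, and the parallel partner Mlx. All 10 were found and all 10 passed the filter on low values, in controls as well as in mutants. RNA sequencing measured polyadenylated transcripts of nephron progenitor cells, the self-renewing cells of the embryonic kidney that form the nephron epithelium. Kidneys of the mouse strain Six2EGFPcre were taken at embryonic day 17.5, and cells were sorted by GFP. The transgene places a GFP and Cre fusion under Six2, so GFP marks cells in which Six2 is or was active. Controls were 4 libraries of genotype VHLNP+/- (heterozygous for the Vhl deletion) and mutants were 4 libraries of genotype VHLNP-/- (homozygous). All 8 libraries therefore carry the transgene, and the control cells also carry 1 deleted Vhl allele. Vhl encodes the ubiquitin ligase subunit that marks hypoxia-inducible factors (HIFs) for degradation. The labels do not say whether a library came from 1 embryo or a pool, so p-values measure the spread between these libraries, which may be partly technical.

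Myc proteins bind DNA as dimers with Max at E-box sequences and raise transcription of genes for growth, ribosome production and cell division. The Mxd proteins and Mnt also dimerise with Max, occupy the same sites and recruit Sin3 and histone deacetylase complexes that lower transcription. Mlx pairs with some of these antagonists and with the glucose-sensing factors Mlxip (MondoA) and Mlxipl (ChREBP). In the developing kidney Mycn is known for its part in keeping nephron progenitors proliferating. Mxi1 is a known target of HIF, and its product is an antagonist of Myc.

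Reads assigned to genes numbered 37252683 to 46515762 per library. Levels are given in normalised reads, which are reads divided by the size factor of the library. A log2 fold change is the mutant mean less the control mean of log2(normalised reads + 1), and a gene was called at a limma adjusted p under 0.05. Vhl, the targeted gene, was at 1133.5, 1379, 1208 and 1179.7 normalised reads in controls 1 to 4 and at 320.0, 285, 331 and 336 in mutants 1 to 4. The mutants held 26.0% of the control level, and all mutants were below all controls. Reads were summed over the whole gene, and the labels do not name the deleted exons. The sort marker Six2 had 25540.1 ± 2806 normalised reads in the control group against 24101 ± 2213 in the mutant group (SD, n = 4 each), and the progenitor marker Cited1 had 2951 ± 348 against 2792 ± 384. All 10 progenitor markers were detected. The groups were not free of other cells: summed markers of early nephron differentiation, tubule, stroma, ureteric bud, endothelium and leukocytes were lowest in control 3 among controls and in mutant 2 among mutants. Summed tubule markers in control 3 were 30.7% of the mean of the other controls. Among the 10 progenitor markers 1 rose (Gdnf) and 3 fell (Meox1, Osr1 and Tmem100). At the same threshold limma called 5.4% of all genes as risen and 3.03% as fallen. When 1 library was left out, Osr1 kept its call in 2 of 8 fits (adjusted p up to 0.138) and Tmem100 in 5 of 8 (up to 0.0704). Of 11 early differentiation markers 1 fell (Cdh6), of 7 endothelial markers 1 rose (Plvap), and 0 of 28 tubule, stroma, ureteric bud and leukocyte markers were called by limma, with 1 higher and 0 lower at an unadjusted p under 0.05 and 1 risen in the authors' deposited table. Cdh6 kept its call in 3 of the 8 fits without 1 library (adjusted p up to 0.151) and Plvap in 7 of 8 (up to 0.053). Of the 11 early differentiation markers, 9 had log2 fold changes below 0, and their median was -0.17, against -0.01 over all genes. The authors' deposited comparison had 3 of these 11 as fallen and 0 as risen, against 5.35% and 7.12% of all genes. With p left unadjusted, 3 of the 11 were lower and 1 was higher at under 0.05. Over all 15381 genes, 12% were higher and 11.2% lower at that unadjusted p. All 7 ureteric bud markers lay above 0, with a median log2 fold change of 0.58, and their summed level was 658 to 3205 normalised reads in controls and 1442 to 3838 in mutants. Summed podocyte markers were 1886 to 8379 in controls and 1308 to 2999.8 in mutants. The part of these other cells in the results on the network was not tested. The single markers given here were picked with their values in view.

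Of the 10 network genes, 1 rose (Mxi1), 1 fell (Myc) and 8 were not called. Across all 15381 genes tested, 8.43% were called, 5.4% as risen and 3.03% as fallen, against 2 of the 10 members. Their median log2 fold change was -0.03, against -0.01 over all genes. The authors' deposited table called Mxi1, Myc and Mycl, 3 of the 10, where it called 12.5% of all genes with an adjusted p, 7.12% as risen and 5.35% as fallen. Values of the groups did not overlap for 2 members, 1 higher (Mxi1) and 1 lower (Myc), and for 15.3% of all genes tested, 8.54% higher and 6.72% lower. In bulk libraries, fewer cells that express a gene and less RNA per cell cannot be told apart.

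**Figure D1:**
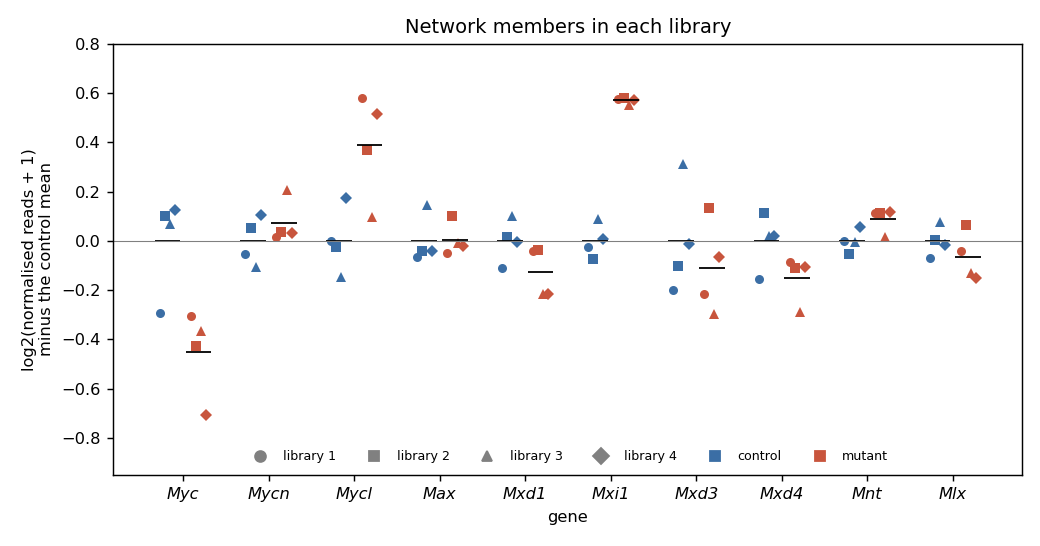
Each point is 1 library, as log2(normalised reads + 1) minus the mean of the 4 controls, for the 10 members (controls in blue, mutants in red, horizontal bars are group means, symbols are the replicate numbers). The 4 mutant values of Mxi1 lie together at 0.57 above the control mean, the mutant values of Myc lie below all controls with control 1 close to them, and the groups overlap for the other 8 genes.

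Mxi1, which encodes the antagonist Mxi1 (also known as Mxd2), was the member with the smallest adjusted p. The gene lies on chromosome 19 from 53310518 to 53375810 (plus strand, mm10, with 9 annotated transcripts). Its level was 3518, 3406, 3806 and 3602 normalised reads in controls 1 to 4. In mutants 1 to 4 it was 5345.0, 5359.8, 5244 and 5325. Every mutant library was above every control library, and the gap between the groups was wider than either group. Mxi1 rose 1.49-fold (log2 fold change 0.57, SE 0.05, limma adjusted p = 2.95e-05), from 3583 ± 169 to 5318 ± 51.8 (SD, n = 4 each). With 4 libraries a group, the two-sided exact permutation test cannot go below p = 0.0286, and Mxi1 reached that value. The coefficient of variation among mutants was 0.98%, below the 1.37% that counting of reads alone would give, and it was 4.71% among controls. The rise was called in all 18 other settings tried, with log2 fold changes between 0.55 and 0.60. Gene-level reads do not separate its transcripts. A 194-base stretch of its exons overlaps Gm10197 on the other strand, and the sources used here do not say whether reads were counted by strand.

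Mxi1 has several promoters, so the sequence before each start was read for the motifs of the factors concerned. Promoter windows of 300 bases (250 before to 50 after a start) from RefSeq, build GRCm38.p6, were matched by symbol for 9 of the 10 members, all but Myc, with 3 windows for Mxi1. Positions are counted from 0 at the first transcribed base, with negative numbers before it. The E-box was searched as CACGTG, which reads the same on both strands. The core of the HIF response element was searched on both strands, in its A form ACGTG, which every E-box contains. Its G form, GCGTG, was searched in the same way. An ACGTG outside an E-box was found in the windows of 1 member, Mxi1, and 13.6% of the 32851 windows of all genes hold one. That share is per window, and a gene with 3 windows has more room for a match than a gene with 1. The Mxi1 match begins 66 bases before the second start of the gene, outside its annotated exons. A further match, 25 bases before the third start, lies in an exon of a transcript that begins upstream. The window at the first start held none of the motifs. The stretch at the second start is shown because it holds the one such match of the risen gene outside exons (chr19:53329320-53329378, plus strand, ACGTG in capitals).
Mxi1, second start: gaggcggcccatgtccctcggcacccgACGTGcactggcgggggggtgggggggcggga

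The E-box, the site that the network itself binds, was in the windows of 4 of the 9 members: Max, Mlx, Mnt and Mxd4. Over all genes 7.15% of windows hold one, a share per window and not per gene. None of these 4 genes was called by limma. The stretches are shown on the strand of each gene, to let the sites of the shared partners and of the antagonists be compared, with the E-box in capitals. That of Max spans its RefSeq start (bases -3 to 2, chr12:76962246-76962278, minus strand). That of Mlx begins at -40 (chr11:101087223-101087282, plus strand), that of Mnt at -123 (chr11:74830774-74830833, plus strand) and that of Mxd4 at -219 (chr5:34187897-34187956, minus strand).
Max: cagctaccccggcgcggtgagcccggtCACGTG
Mlx: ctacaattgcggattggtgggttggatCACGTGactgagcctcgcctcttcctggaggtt
Mnt: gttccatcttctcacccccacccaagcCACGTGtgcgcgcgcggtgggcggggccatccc
Mxd4: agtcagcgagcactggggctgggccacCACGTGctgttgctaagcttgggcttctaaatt
GCGTG was in the windows of 4 members, Mycl, Mxd1, Mnt and Max, and in 32.4% of all windows. The windows of Mycn and Mxd3 held none of the 3 motifs. These matches are letters in a window and show no binding. For Max, Mycl and the first start of Mxi1, the bases after the RefSeq start were not found in GENCODE transcripts of the gene.

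**Figure D2:**
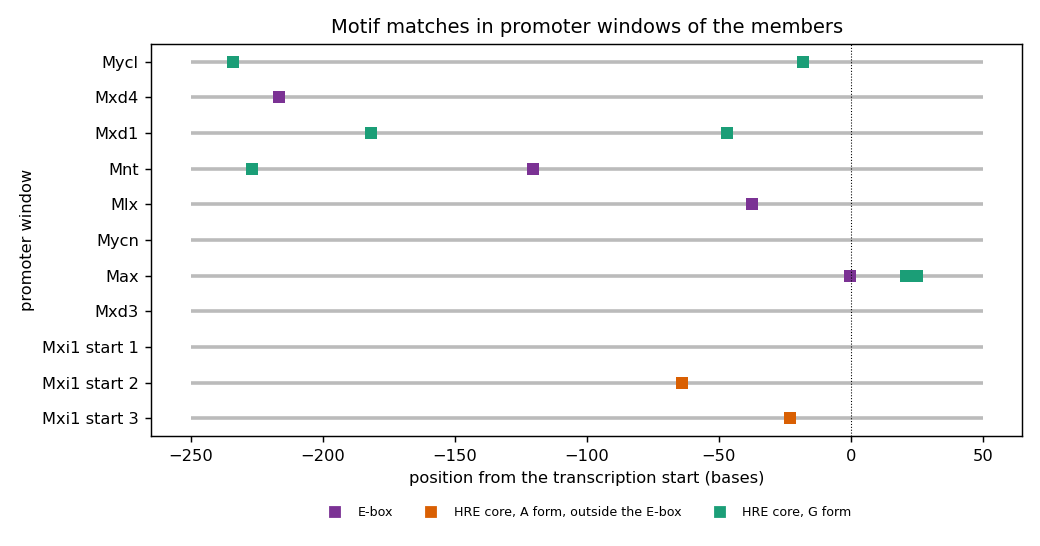
Positions of motif matches in the 11 RefSeq promoter windows of 9 members, in bases from the transcription start (dotted line). Purple squares are E-boxes, in the windows of Max, Mlx, Mnt and Mxd4. Orange squares are HIF response element cores of the A form outside an E-box, at 2 of the 3 Mxi1 starts, and green squares are cores of the G form.

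Myc encodes the founding protein of the family and lies on chromosome 15 from 61985391 to 61990374 (plus strand, mm10). Its level was 3278, 4314, 4216 and 4381 normalised reads in controls 1 to 4. In mutants 1 to 4 it was 3251, 2993, 3116 and 2462. The groups did not overlap, but control 1 lay just above mutant 1 and far below the other controls. Myc fell by 0.45 in log2 (SE 0.11, 95% interval -0.69 to -0.21, limma adjusted p = 0.0298), from 4047 ± 517 to 2956 ± 345.0 (SD, n = 4 each), to 73.1% of the control level. The authors' deposited table gives a log2 fold change of -0.45 with an adjusted p of 9.45e-04. The call did not hold in 6 of the 8 fits that left out 1 library: the adjusted p was 0.0882, 0.0754 and 0.0868 without control 2, 3 or 4 and 0.0672, 0.0643 and 0.0721 without mutant 2, 3 or 4. Without control 3 and mutant 2 together it was 0.132, and the log2 fold change was -0.44.

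Members differed in their spread between libraries. The coefficient of variation of Myc was 12.8% in controls and 11.7% in mutants. A comparable spread was seen for Mxd3 (16.2% and 13.5%) and Mycl (9.26% and 14.3%), whereas Mnt varied by 3.11% and 3.28%.

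Mycn, the family member best known in nephron progenitors, lies on chromosome 12 from 12936093 to 12941914. It was at 2758, 2973, 2662 and 3082 normalised reads in controls 1 to 4 and at 2897.5, 2939, 3309 and 2925.5 in mutants 1 to 4. The ranges overlapped, with mutant 3 the highest library. The log2 fold change was 0.07 (95% interval -0.07 to 0.22, limma adjusted p = 0.557), and a difference of the size seen for Myc lies outside that interval.

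Mycl, the third family member, lies on chromosome 4 from 122995652 to 123002485. Its level was the lowest of the network: 302, 297, 273 and 341 normalised reads in controls 1 to 4 and 453, 391, 323 and 432 in mutants 1 to 4. Mutant 3 was below control 4 and the other 3 mutants were above every control. The log2 fold change was 0.39 (95% interval 0.13 to 0.65), and limma did not call it (adjusted p = 0.0689). The authors' deposited table calls it (log2 fold change 0.40, adjusted p = 0.0284). Without mutant 3 limma called it as well (adjusted p = 0.0235, log2 fold change 0.49).

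Max, the partner that Myc proteins and antagonists share, was not called. It was at 2669, 2716, 3089.9 and 2717 normalised reads in controls and 2699, 2997, 2773 and 2756 in mutants. Control 3 and mutant 2 were the highest of their groups. The log2 fold change was 0.01 (95% interval -0.13 to 0.14, limma adjusted p = 0.971), and its sign turned in 5 of 18 other settings, TMM scaling among them. Mlx, the parallel partner, was at 1139 ± 48.2 for controls and 1090.2 ± 76.2 for mutants (SD, n = 4 each), with a log2 fold change of -0.06 (95% interval -0.21 to 0.08, limma adjusted p = 0.611). A stretch of 385 exonic bases of Mlx overlaps Psmc3ip on the other strand.

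None of the other 4 antagonists was called. Mnt, the most widely expressed antagonist, was at 2097, 2022, 2088 and 2181 normalised reads in controls and 2265, 2265, 2121 and 2271 in mutants. Mutants 1, 2 and 4 exceeded all controls and mutant 3 did not. Its log2 fold change was 0.09 (95% interval -0.02 to 0.20, limma adjusted p = 0.337). Mxd4 was at 1874, 2257, 2116 and 2115 in controls and 1964.5, 1931, 1705 and 1938.5 in mutants, so that control 1 fell within the range of the mutants. The log2 fold change of Mxd4 was -0.15 (95% interval -0.30 to 0.01, limma adjusted p = 0.238). A stretch of 514 exonic bases of Mxd4 overlaps Gm42846 on the other strand. Mxd1, which is induced as many cell types differentiate, was at 1142 ± 68.4 and 1046.7 ± 74.2 normalised reads (SD, n = 4 each; log2 fold change -0.13, 95% interval -0.28 to 0.03, limma adjusted p = 0.318).

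Mxd3, the antagonist that is expressed in S phase, had the widest interval among the antagonists. It was at 512, 547, 730 and 582 normalised reads in controls and 505, 645, 478 and 562 in mutants. Control 3 and mutant 2 were the highest of their groups, as for Max. The log2 fold change was -0.11 (95% interval -0.38 to 0.16, limma adjusted p = 0.647). Its exons share 105 bases with Prelid1 on the other strand, a gene for a mitochondrial lipid transfer protein that rose 1.75-fold (named after its values were seen). What part those reads have in the value of Mxd3 was not tested.

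Per kilobase of exon, which allows levels of different genes to be set side by side, the order of the members depended in part on the length used. With all annotated exons joined, Myc was the highest member in both groups and Mycl the lowest. In controls Myc was at 1489.6 ± 190.0 normalised reads per kilobase, Mycn at 871 ± 58.5 and Max at 778 ± 54.5 (SD, n = 4 each). Mlx (570 ± 24.1), Mxi1 (525 ± 24.7) and Mnt (453 ± 14.1) followed, then Mxd3 (250 ± 40.5), Mxd4 (246 ± 18.7), Mxd1 (161 ± 9.67) and Mycl (75.1 ± 6.95). The ranges over the 4 controls overlapped between the neighbours Mycn and Max, Mlx and Mxi1, and Mxd3 and Mxd4, and did not for the other neighbours. In mutants Mxi1 stood above Mlx, at 779 ± 7.60, with a range that overlapped that of Max (780 ± 36.5) and not that of Mlx (545 ± 38.1). Myc (1088 ± 127) and Mycn (916 ± 59.1) did not overlap in controls and overlapped in mutants. By the longest transcript of each gene, Mycl was again the lowest, but Max ranked first in mutants, at 1445 ± 67.5 against 1264 ± 148 for Myc, and the ranges of Max and Myc overlapped in both groups. Mxi1 by that length was above Mlx already in controls (711 ± 33.5 against 580.0 ± 24.6). It stayed apart from Max in mutants, at 1056 ± 10.3. The ratio of Myc to Mxi1 in controls was then 2.43 instead of 2.84, and Myc and Mycn overlapped in mutants only, as with joined exons.

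**Figure D3:**
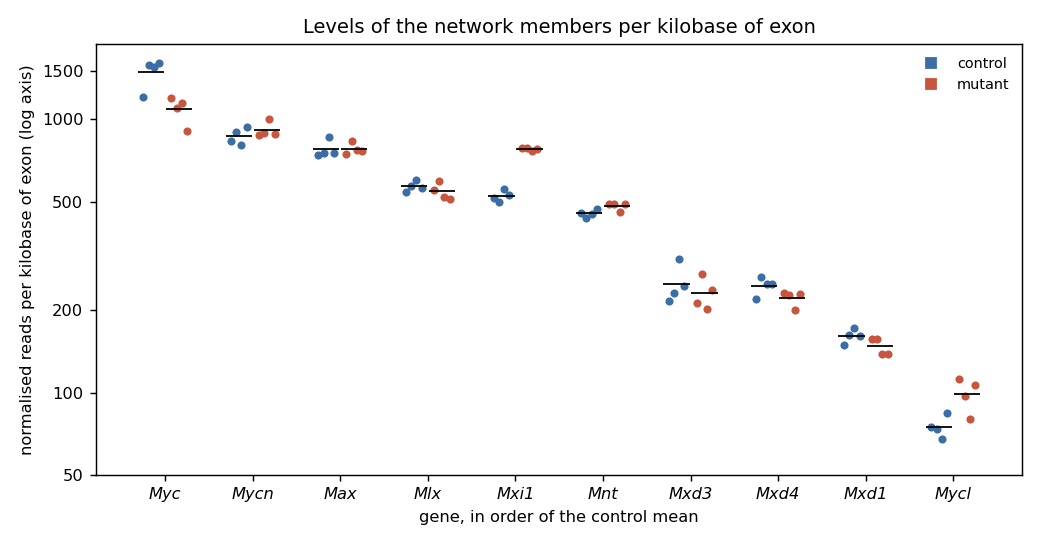
Normalised reads per kilobase of all annotated exons joined (log axis) for the members in order of their control mean; points are the 4 libraries of a group (controls blue, mutants red) and bars are group means. Mxi1 rises from 525 to 779 and Myc falls from 1489.6 to 1088; the places of Mxi1 beside Max and Mlx hold for this length and not for the longest transcript.

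Set against their antagonists, the Myc family genes held a smaller share of the transcript level of the network in mutants. The summed level per kilobase of Myc, Mycn and Mycl, as a percentage of the sum of these and the 5 antagonists, was 57.7%, 61.6%, 58.3% and 61.4% in controls 1 to 4. It was 53.9%, 52.0%, 55.8% and 50.3% in mutants 1 to 4. All mutants were below all controls, with means of 59.7% ± 2.07 and 53.0% ± 2.35 (SD, n = 4 each). By the longest transcript the means were 56.7% ± 2.02 and 50.2% ± 2.37, again without overlap. This share is a description of chosen genes and carries no test. The sum of the antagonists was higher in every mutant (1769 to 1932 normalised reads per kilobase) than in every control (1555 to 1739.7). Of the 5 antagonists only Mxi1 was called, and each of the others overlapped between the groups. The sum of the Myc family genes overlapped between the groups, with 2118 to 2632 in controls and 1901 to 2231 in mutants.

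Within each side, the share of the called member was set out. Mxi1 and Myc were already seen to differ without overlap, so these shares and their ratio restate those differences and carry no test. Mxi1 made up 32.1% ± 0.780 of the antagonist sum in controls and 41.9% ± 1.16 in mutants, and Myc made up 61.0% ± 2.93 and 51.6% ± 2.96 of the Myc sum (SD, n = 4 each). The ratio of Myc to Mxi1 per kilobase was 2.34, 3.18, 2.78 and 3.05 in controls and 1.53, 1.4, 1.49 and 1.16 in mutants. The lowest control ratio was that of control 1, whose Myc level was low. The transcript level of Max amounted to 19.1% ± 1.48 of the summed Myc family and antagonist genes for controls. It was 19.7% ± 1.01 for mutants (SD, n = 4 each), with overlapping values.

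**Figure D4:**
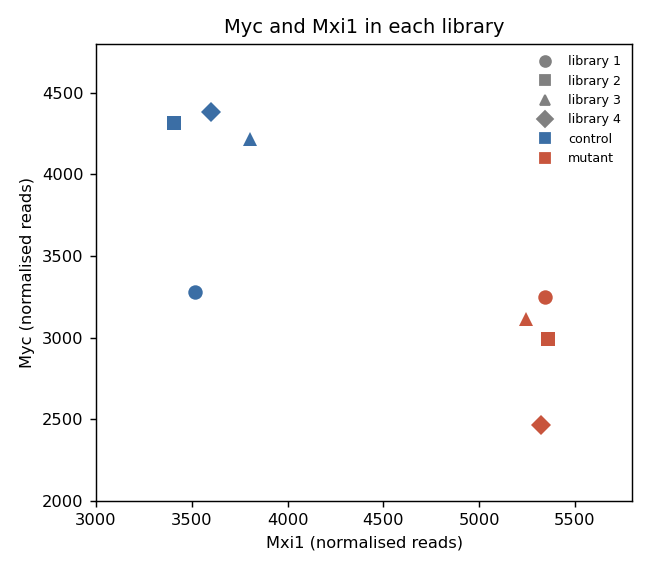
Myc against Mxi1 in normalised reads, 1 point per library (controls blue, mutants red, symbols are replicate numbers; neither axis starts at 0). Along Mxi1 the controls (3406 to 3806) and the mutants (5244 to 5359.8) form separate groups, while along Myc control 1 (3278) lies just above mutant 1 (3251).

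The genes whose values over the 8 libraries were most like those of Mxi1 were Dnajc5 (Pearson r = 0.997), Ccdc115 (0.995), Fam162a (0.995), Ciart (0.994) and Pfkfb3 (0.993). All 5 rose, with log2 fold changes from 0.43 for Dnajc5, a vesicle chaperone, to 3.72 for Ciart, a clock repressor. For Myc they were Arl15 (0.972), Ust (0.968), Draxin (0.964), Tmod1 (0.963) and Npdc1 (0.962). Of these Tmod1, a protein that caps actin filaments, fell (by 0.50, limma adjusted p = 0.0147) and the other 4 were not called (adjusted p = 0.0561 to 0.276). These correlations are a ranking over all tested genes. The libraries share the 2 groups, so that any gene with a strong group difference correlates with Mxi1.

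Around the core network, 2 of 10 further genes of E-box factors and Myc partners rose by limma, 0 fell and 8 were not called. Over all genes tested 5.4% rose and 3.03% fell. Both risen genes of the 10 encode repressors that bind E-boxes and are known HIF targets. Bhlhe40 rose 4.90-fold, from 559 ± 108 to 2711 ± 188 normalised reads, and Bhlhe41 rose by 3.33 in log2, with 46.6 ± 11.6 in the controls and 470.0 ± 80.6 in the mutants (SD, n = 4 each; limma adjusted p = 8e-07 and 4.18e-07). Neither overlapped between the groups. Both share exonic bases with a gene on the other strand. The partners of Mlx were not called: Mlxip was at 4381 ± 352 and 4187 ± 318, and Mlxipl at 276 ± 8.70 and 265 ± 9.95 (SD, n = 4 each; limma adjusted p = 0.648 and 0.727). Mga, which also dimerises with Max, had a log2 fold change of 0.09 (95% interval -0.13 to 0.31). Zbtb17, which encodes Miz1, the factor through which Myc represses genes, had an adjusted p of 0.767 in limma. The Myc-binding proteins Mycbp and Mycbp2 had log2 fold changes of 0.09 and 0.05, and the E-box factors Usf1 and Usf2 of -0.10 and 0.07 (limma adjusted p = 0.513, 0.763, 0.518 and 0.523).

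Among 12 genes of the corepressor complexes that Mxd proteins and Mnt recruit, 2 rose and 0 fell. Over all genes tested 5.4% rose and 3.03% fell. Sap30, a subunit of the Sin3 complex and a known HIF target, went from 1238 ± 103 to 1817 ± 124 (SD, n = 4 each; log2 fold change 0.55, limma adjusted p = 7.43e-04). Ing2, another subunit associated with Sin3, rose 1.22-fold (limma adjusted p = 0.0106). That call was lost in the fit without control 3 and mutant 2 (adjusted p = 0.0619), with the replicate numbers as a block (0.0625) and with the deposited values as they are (0.184). Sin3b and the deacetylase gene Hdac1 were not called (limma adjusted p = 0.298 and 0.281).

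Of 12 genes of Myc coactivators, 0 were called by limma or in the authors' deposited table, though with p left unadjusted 2 of the 12 were lower at under 0.05 and 0 were higher, against 11.2% and 12% of all genes. These 2 were Actl6a and Smarcb1, subunits of chromatin remodelling complexes (log2 fold changes -0.14 and -0.17). Of 15 tested genes of Myc protein turnover, 0 were called by limma or in the authors' deposited table, and with p left unadjusted 1 was higher and 2 were lower at under 0.05. Skp2, a ubiquitin ligase subunit that acts on Myc, had a log2 fold change of -0.13 (limma adjusted p = 0.156), and Usp7, a deubiquitinase, one of 0.14 (limma adjusted p = 0.159). Transcript levels do not show the amount of Myc protein.

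Known Myc targets were then counted. Of 32 genes of ribosome biogenesis 0 rose, 1 fell and 31 were not called, while 27 of the 32 had log2 fold changes below 0, as had 51.5% of all genes tested. Their median was -0.11, against -0.01 over all genes. With p left unadjusted, 12 of the 32 were lower and 0 higher at under 0.05, where 11.2% of all genes were lower and 12% higher. Of the 32, the authors' deposited table had 6 that fell and 0 that rose, against 5.35% and 7.12% of all genes. The fallen gene was Nolc1, which encodes a nucleolar chaperone. Its normalised reads were 6546 ± 256 for controls against 5717 ± 230.0 for mutants (SD, n = 4 each; log2 fold change -0.20, limma adjusted p = 0.0459). The adjusted p of Nolc1 was between 0.0378 and 0.128 when 1 library was left out, and it was under 0.05 in 2 of the 8 fits. Nop2, Nop56 and Rrp9, which act in ribosomal RNA processing, had log2 fold changes of -0.25, -0.17 and -0.21 and were not called (limma adjusted p = 0.0621, 0.0916 and 0.0960).

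Of 32 Myc targets of growth and metabolism, 3 rose, 4 fell and 25 were not called, with a median of -0.11. By limma 5.4% of all genes rose and 3.03% fell. Log2 fold changes were below 0 for 25 of the 32, as for 51.5% of all genes tested. With p left unadjusted, 11 of the 32 were lower and 5 higher at under 0.05, against 11.2% and 12% of all genes. Of the 32, the authors' deposited table had 8 that fell and 3 that rose, against 5.35% and 7.12% of all genes. Slc7a5, a transporter of large amino acids, fell by 0.44 in log2, with 2881 ± 232 normalised reads in the controls and 2127 ± 96.5 in the mutants (SD, n = 4 each; limma adjusted p = 0.00171). Srm, the spermidine synthase, fell by 0.34 (limma adjusted p = 0.0121). The enzymes of nucleotide synthesis Ctps and Impdh2, named after their values were seen, fell by 0.28 and 0.30. The risen members were Tfrc, the transferrin receptor and a known HIF target (0.52, limma adjusted p = 0.00103), the cyclin gene Ccnd2 (0.40, limma adjusted p = 0.00271) and the cap-binding factor Eif4e (0.21, named after its values were seen). Without control 3 and mutant 2, the adjusted p of Srm was 0.0546, that of Ctps 0.0727, that of Impdh2 0.109 and that of Eif4e 0.125. Of the 8 fits without 1 library, Ctps kept its call in 6 (adjusted p up to 0.0582), Impdh2 in 3 (up to 0.0911) and Eif4e in 2 (up to 0.126).

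Of 9 tested genes that Myc is known to repress, 4 rose and 0 fell, and 5 were not called. Over all genes tested 5.4% rose and 3.03% fell. Ndrg2 rose 2.17-fold, from 2448 ± 136 to 5319.8 ± 424 normalised reads, and Ndrg1, also a known HIF target, rose 2.21-fold, from 941 ± 232 to 2033 ± 156 (SD, n = 4 each; limma adjusted p = 7.99e-07 and 0.0043). Cdkn1a, the cell cycle inhibitor p21, rose 1.67-fold (limma adjusted p = 5.58e-04), and Cdkn1b, the inhibitor p27, rose 1.31-fold (limma adjusted p = 0.0192). The call of Cdkn1b was lost in 4 of the 8 fits without 1 library, those without control 3 or 4 and mutant 3 or 4 (adjusted p = 0.0510, 0.0596, 0.0569 and 0.0726). The summed level of the list was 9336 to 15536 in controls and 16639 to 21442 in mutants. The lowest sums were those of control 1 and of mutant 2. In control 3 the sum was 74.8% of the mean of the other controls, and in mutant 2 it was 83.9% of that of the other mutants. The sums of both Myc target lists overlapped between the groups. They were 237275 to 257072 and 240918 to 255060 for ribosome biogenesis, and 254962 to 284741 and 245462 to 271762 for growth and metabolism (controls, then mutants). The list of genes repressed by Myc holds genes with other known regulators, HIF and p53 among them, and it was not compared with other genes by a test.

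Targets of Mlx and its glucose-sensing partners were not called in limma, 0 of 7, with a median log2 fold change of -0.19. With p left unadjusted, 3 of the 7 were lower and 0 higher at under 0.05, against 11.2% and 12% of all genes. Of the 7, the authors' deposited table had 1 that fell and 0 that rose, against 5.35% and 7.12% of all genes. Arrdc4, an arrestin-like regulator of glucose uptake, was at 3726 ± 888 in controls and 2402 ± 338 in mutants, and Txnip, a related protein, at 5002 ± 1687 and 3110.1 ± 671 normalised reads (SD, n = 4 each; limma adjusted p = 0.0743 and 0.211). Both overlapped between the groups. Klf10, a transcription factor, had a log2 fold change of -0.19 (limma adjusted p = 0.130). Of 16 genes of S phase and mitosis, 0 rose and 1 fell, against 5.4% and 3.03% of all genes, and 15 were not called. The fallen gene was Ccne1, which encodes a cyclin of the entry into S phase (by 0.39, limma adjusted p = 0.0203). Its call was lost without control 2, 3 or 4 (adjusted p = 0.0607, 0.0542 and 0.0615). Rrm2, a subunit of ribonucleotide reductase, did not overlap between the groups and was not called (log2 fold change -0.21, limma adjusted p = 0.0544). Rrm2 was called in 3 of 18 other settings. With p left unadjusted, 2 of the 16 were lower and 0 higher at under 0.05. The authors' deposited table had 2 of the 16 that fell and 0 that rose.

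**Figure D5:**
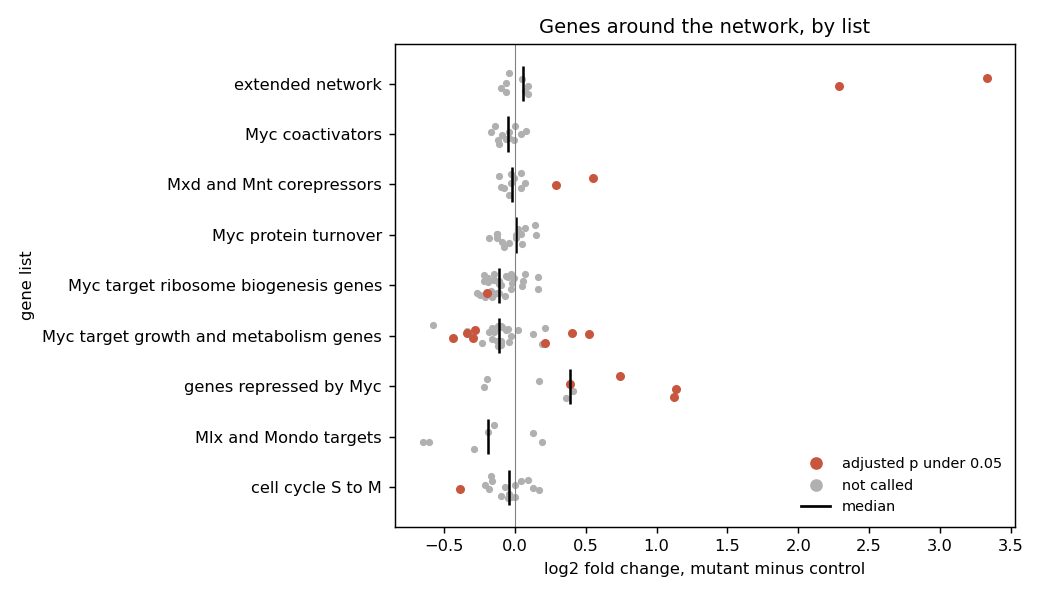
Log2 fold changes (mutant minus control) of the tested genes in 9 lists around the network, 1 point per gene; red points passed an adjusted p under 0.05 in limma, grey points did not, and black bars are list medians. The 2 points on the far right are Bhlhe40 and Bhlhe41, and both lists of Myc targets have medians of -0.11.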

How the data were processed

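The labels gave 4 control and 4 mutant libraries of a kit that keeps strand (TruSeq Stranded mRNA, per the labels). STAR 2.5.3a, mm10 and DESeq2 1.18.1 were used by the authors, per the submitters' processing notes. No source used here names the read counter or the annotation. What the authors deposited is a signal per library: read counts divided by size factors, a division that the values show was applied a second time with the 8 factors recycled down the genes. Undoing both gave whole reads that rebuild the deposited mean within a relative tolerance of 1e-09 for 20254 of 20254 genes. The authors' deposited log2 fold changes with their errors and p-values served as 1 alternative, and their deposited test score was left aside.

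Values divided once by the size factors (at least 10 in at least 4 libraries, 15381 genes) were compared as log2(value + 1) with limma 3.58.1 (R 4.3.3), using mean-dependent moderation of the variances with its robust option, over all 8 libraries at once, two-sided, with Benjamini-Hochberg adjustment over all genes. Positions, exon lengths and overlaps came from GENCODE vM21 on GRCm38, the assembly of mm10, which matched 19590 of the genes. The planned edgeR and DESeq2 fits were not run: count models were kept to values deposited as counts, and limma-voom stood in for them on the recovered reads.

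The members and lists were chosen with earlier results of these data known. The rule named the members, Vhl, the E-box factor list, up to 4 genes with the smallest adjusted p of each other list, and the 5 genes most like Mxi1 and most like Myc; where a gene outside the rule is given, the text says so. Lists are described by counts and medians. The calls of 1 marker list are not reported here.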

Additional observations from a re-analysis of the deposited data

Results flagged for a closer look

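In 5 of 24 groups of 4 libraries examined (the 10 members, Vhl and the Myc share, in controls and mutants), 1 library stood far from the other 3 by the gap to its neighbour as a part of the range of the group (Dixon's ratio, 95% level); chance gives this in about 1 in 20 groups. Myc was lowest in control 1, at 3278 normalised reads, and Max was highest in control 3, at 3089.9. The other 3 concern mutant 3: Mycn was highest there (3309), while Mxd4 (1705) and Mnt (2121.0) were lowest. Without control 1 the log2 fold change of Myc was -0.55 (limma adjusted p = 0.00297), and without mutant 3 that of Mycn was 0.03, that of Mxd4 -0.10 and that of Mnt 0.11, with no call of these 3.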

How the results depend on the processing

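Over 18 other settings, the 67 genes named gave 1206 values: 1086 kept direction and side of the threshold, 86 lost a call, 26 gained one and 8 turned sign, none of the last in a called gene. Sign turned for Max (TMM scaling -0.005, and without 1 library between -0.03 and 0.05), Mycn (-0.002 with library quality weights), Zbtb17 (between -0.09 and 0.00049 without 1 library) and Mycbp2 (between -0.02 and 0.1 without 1 library). Mxi1 was called in 18 of 18 settings and Myc in 10. Members called numbered 1 with the replicate block and without control 3 and mutant 2, and 1 to 2 without 1 library. Same-numbered libraries correlated by 0.213, -0.143, -0.144 and 0.063 in their deviations from the group means. The highest correlation between the groups was that of control 3 with mutant 2 (0.57). Deviations may also carry differences in other cells, so these values cannot decide whether the numbers pair libraries. With the replicate block the limma adjusted p of Myc was 0.0888.

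Genes called (1297; 831 higher, 466 lower) numbered 697 (537, 160) with the deposited values as they are, 766 (550, 216) with the replicate block, 764 (541, 223) without control 3 and mutant 2, and 2996 (1622, 1374) with library quality weights, a setting added after seeing the data, as were the leave-outs for Vhl, the Myc share and the ratio per kilobase. The authors' deposited table has 810 lower. Without 1 library the count was 774 to 1565, with 541 to 913 higher and 231 to 652 lower. The Myc to Mxi1 ratio per kilobase in controls was 2.43 by the longest transcript. Among the members, counting error was largest for Mycl and Mxd3, at 4.09% to 5.70% per library. Their coefficients of variation between libraries were larger, at 9.26% to 16.2%.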
